A study of Mus musculus with 11 samples.

Results

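Fkbp6 and the 8 protein-coding genes that flank the deleted interval of a mouse model of Williams–Beuren syndrome (WBS) were examined in the heart. The interval runs from Gtf2i to Fkbp6 on chromosome 5 of GRCm38 (134237834 to 135350044), and the 9 genes are Fkbp6 itself, at its end, and each protein-coding gene within 200 kb outside it, out of 22608 genes in the table. Castor2, Rcc1l, Gtf2ird2 and Ncf1 lie outside the Gtf2i end, and Trim50, Nsun5, Pom121 and Hip1 lie outside the Fkbp6 end. The annotation (GENCODE mouse release 21) lists 14 genes in these flanks, of which 8 code for protein, and all 8 are in the table. Fkbp6 did not pass the filter on low expression, an average of at least 1 log2 CPM (counts per library, scaled to the same size) over all mice. The other 8 genes passed it, Trim50 only through its level in mice with the deletion.

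RNA from the ventricle was sequenced in 11 male mice aged 8 to 16 weeks on a C57BL/6J background. Complete deletion (CD) mice lack a single copy of the interval, and wild-type (WT) littermates carry both copies. Mice received vehicle or JZL184, an inhibitor of the enzyme that degrades the endocannabinoid 2-AG, at 8 mg/kg daily for 10 days, which gave 2 WT VEH mice and 3 mice in each of the groups WT JZL184, CD VEH and CD JZL184. The labels call the control mice untreated, whereas their titles name vehicle. Total estimated counts lay between 69660232 and 92251443 per mouse, and mitochondrial transcripts made up 36.4% to 46.6% of them. Some libraries stood apart within their group. By the chi-square of counts per gene, CD VEH mouse A lay at 92.7 and 90.4 from the other CD VEH mice, which were 28.3 from each other. WT JZL184 mice A and B were 67.2 apart, and mouse D was 33.1 and 42.7 from them. The cardiomyocyte markers summed to at least 20837 CPM in every mouse. Where exactly the deletion ends within Gtf2i and Fkbp6 was not given in the sources used here.

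Deletion of a chromosome segment lowers the dose of the genes inside it, and the genes beside the breakpoints keep both copies but gain a new neighbourhood. In humans, deletions of the same syndrome arise between duplicated blocks that hold copies of several of these flanking genes. Fkbp6 encodes an immunophilin-like protein known for its role in meiosis and in the piRNA pathway of male germ cells. Trim50 encodes an E3 ubiquitin ligase known from gastric parietal cells.

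Fkbp6 and Trim50 are neighbours transcribed away from each other. Fkbp6 (ENSMUSG00000040013.11, 135291704 to 135350044, minus strand) starts at the outer end of the interval, and Trim50 (ENSMUSG00000053388.10, 135353295 to 135368005, plus strand) starts 3251 bases further out. The RefSeq promoter window of Fkbp6 at that start site is shown because it lies at the edge of the interval and faces Trim50. It covers chr5:135349995-135350294 on the minus strand of GRCm38.p6, with the 250 bases before the start in lower case and the 50 bases from the start in capitals.
Fkbp6: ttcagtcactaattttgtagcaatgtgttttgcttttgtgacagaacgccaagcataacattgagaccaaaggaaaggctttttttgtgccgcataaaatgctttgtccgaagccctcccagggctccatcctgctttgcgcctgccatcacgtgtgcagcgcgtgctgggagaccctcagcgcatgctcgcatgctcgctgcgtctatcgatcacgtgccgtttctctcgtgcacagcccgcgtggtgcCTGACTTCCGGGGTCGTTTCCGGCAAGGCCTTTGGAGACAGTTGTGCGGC
This window holds 21 CG pairs, a number reached by 24.8% of the 32851 windows of 300 bases in the RefSeq set, and its GC content is 55.0%. A second window of Fkbp6 holds 32 CG pairs (reached by 9.52%). The letters TATAAA occur on neither strand of the 9 windows found for 7 of the 9 genes, and 13.6% of all windows hold them on either strand. The set has no window for Trim50 or Nsun5.

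Fkbp6 and Trim50 were both higher in CD mice than in WT mice under either treatment, and the other 7 genes overlapped between the genotypes when the treatments were pooled. The 9 genes were selected on position with the CD against WT values of Fkbp6 and Trim50 already known, so values of CD against WT are a description without a test. Fkbp6 was listed with 69, 64 and 83 counts in CD VEH and 94, 73 and 83 in CD JZL184, against 4 and 1 in WT VEH and 1, 5 and 2 in WT JZL184. In CPM, the 6 CD mice ran from 0.744 to 1.10 (median 0.893) and the 5 WT mice from 0.0124 to 0.0704. The lowest CD mouse was thus above the highest WT mouse, at a level that was low in every mouse. The ratio of CD to WT from the summed counts was 25.9 under vehicle (95% interval 10.9 to 80.5) and 27.1 under JZL184 (13.5 to 63.4). These intervals are exact and cover counting error only.

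Trim50 was listed with 563, 504 and 588 counts in CD VEH and 483, 566 and 532 in CD JZL184. The WT VEH mice had 8 counts each, and the WT JZL184 mice had 1, 0 and 5. The CD mice lay between 5.66 and 6.90 CPM (median 6.15), and no WT mouse exceeded 0.116 CPM. The ratio of CD to WT was 62.0 (38.0 to 109) under vehicle and 228 (105 to 623) under JZL184, where the WT side rests on 6 counts in all. Averaged over both treatments, the log2 fold-change of CD against WT was 6.84 (SE 0.20) for Trim50 and, from the fit without the filter, 4.67 (SE 0.33) for Fkbp6. In each CD mouse, Trim50 had between 4.98 and 7.92 times as many counts per kb of exon as Fkbp6.

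Per kb of annotated exon, Trim50 reached 3.45 CPM in CD mice, above 49.7% of the genes tested, and 0.0316 CPM in WT mice. Fkbp6 reached 0.512 CPM per kb in CD mice, above 4.23% of the genes tested, and 0.0202 in WT mice. In CD mice the order of levels per kb was Rcc1l (7.58), Trim50 (3.45), Castor2 (3.13), Hip1 (2.63), Pom121 (2.43), Nsun5 (1.53), Ncf1 (1.02), Gtf2ird2 (0.731) and Fkbp6 (0.512). In WT mice Rcc1l also had the highest level (7.24), and Trim50 and Fkbp6 stood at the bottom, under Gtf2ird2 at 0.719.

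**Figure D1:**
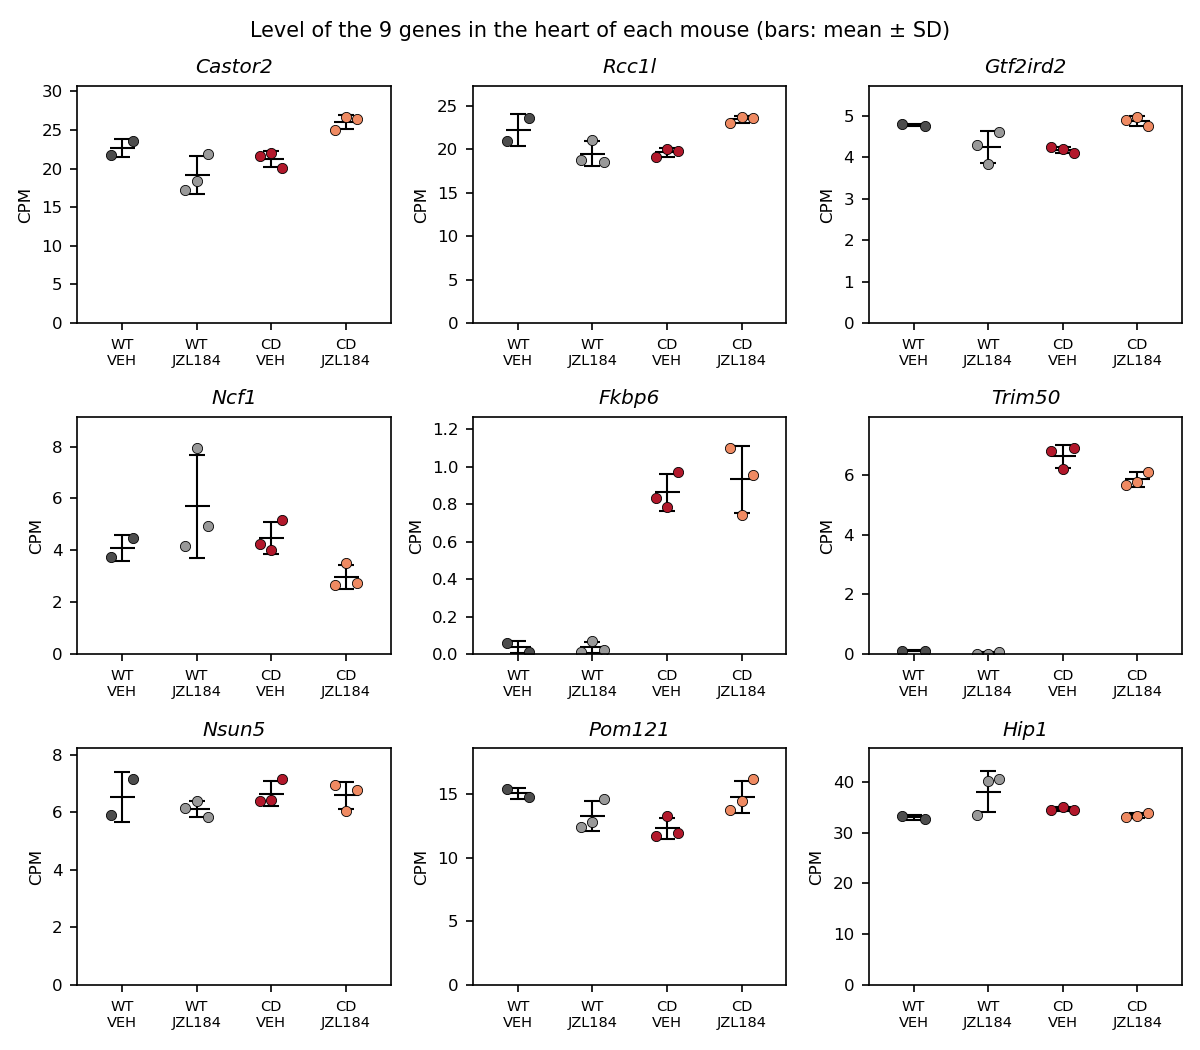
Level of each gene in CPM (vertical axis, linear from 0) in each of the 11 mice, by group; points are mice and bars show the mean ± SD of the group. Fkbp6 and Trim50 are near 0 in the 5 WT mice and higher in the 6 CD mice, and the other 7 genes overlap between the genotypes when the treatments are pooled.

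Groups of the 6 CD and 5 WT mice that did not overlap were thus found for 2 of the 9 genes, and for 1.34% of all tested genes (0.751% upward). These shares cannot be compared, since the values of these 2 genes were known when the 9 were chosen. Fkbp6 is also not among the tested genes, and Trim50 is among them only through its level in CD mice. The markers of the cells best known for these 2 genes were checked in the same mice. The gastric parietal cell genes Atp4a and Atp4b had 0 to 5 counts in every mouse. Of 6 male germ cell markers, Tnp1 was at 0 in every mouse and Prm1 had at most 2 counts, whereas Sycp3 had 11 to 42 counts, Ddx4 14 to 29, Acr 6 to 31 and Dazl 3 to 15. Their summed level was 0.423 to 1.09 CPM in CD mice and 0.935 to 1.06 CPM in WT mice. The piRNA pathway genes, partners of Fkbp6 in germ cells, mostly had few counts, and Mael had none. Of the 15 listed genes 3 passed the filter, Mov10l1, Tdrd7 and Tdrkh, and none of the 3 differed between CD and WT averaged over treatments by edgeR's test, as 1.09% of all tested genes did.

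The nearest deleted neighbours went the other way. Gtf2i, which forms the opposite end of the interval and encodes the transcription factor TFII-I, had 126 CPM in WT VEH and 54.1 CPM in CD VEH, and 99.8 CPM in WT JZL184 and 66.8 CPM in CD JZL184. Its log2 fold-change of CD against WT was -1.22 (SE 0.07) under vehicle, -0.58 (SE 0.06) under JZL184 and -0.90 (SE 0.04) averaged over treatments. Fzd9, a Wnt receptor gene next to Fkbp6, had 36 to 68 counts in WT mice and 16 to 37 in CD mice, and its log2 fold-change was -1.84 (SE 0.32) under vehicle, -0.92 (SE 0.28) under JZL184 and -1.38 (SE 0.21) averaged, from the fit without the filter. In CPM, the 6 CD mice lay below the 5 WT mice for both genes.

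The genotype differences of the flanking genes are given by distance from the edge. On the Fkbp6 side, Trim50 lies 3.25 kb outside the interval, and the next gene, Nsun5, 19.9 kb outside. Nsun5 (ENSMUSG00000000916.15, 135369953 to 135376805), an RNA methyltransferase gene, had 5.92 and 7.16 CPM in WT VEH, 5.84 to 6.40 in WT JZL184, 6.39 to 7.15 in CD VEH and 6.06 to 6.94 in CD JZL184. All 4 groups overlapped, and the averaged log2 fold-change was 0.06 (SE 0.07). Pom121 at 26.1 kb and Hip1 at 56.5 kb had averaged log2 fold-changes of -0.07 (SE 0.06) and -0.06 (SE 0.05).

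On the Gtf2i side, Ncf1 is the closest gene, 8.21 kb outside, and its averaged log2 fold-change was -0.40 (SE 0.16), from 0.13 under vehicle and -0.93 under JZL184. Without WT JZL184 mouse B the average was -0.25. Gtf2ird2 at 13.5 kb had 0.00 (SE 0.07), Rcc1l at 61.1 kb had 0.04 (SE 0.05) and Castor2 at 93.5 kb had 0.17 (SE 0.06). Over the 7 genes other than Fkbp6 and Trim50, the median was 0.00, as it was over all tested genes. Within a treatment these 7 genes ran from -0.29 to 0.13 under vehicle and from -0.93 to 0.44 under JZL184. Averages near 0 came from opposite signs for Rcc1l (-0.18 under vehicle and 0.27 under JZL184), Gtf2ird2 (-0.19 and 0.20), Pom121 (-0.29 and 0.16) and Hip1 (0.07 and -0.19). Under vehicle, Rcc1l, Gtf2ird2 and Pom121 were lower and Hip1 was higher in all CD mice than in all WT mice (4 of 7, and 64.0% of all tested genes did not overlap). Under JZL184, Castor2, Rcc1l and Gtf2ird2 were higher and Ncf1 was lower in all CD mice (4 of 7, and 47.9% of all tested genes). Gtf2ird2 is a paralogue of Gtf2i, and how reads shared by the pair were divided cannot be seen from the counts. Gtf2ird2 and Ncf1 overlap by 4303 bases on opposite strands and Nsun5 and Pom121 by 665 bases, and whether the libraries kept the strand was not given in the sources used here, so reads of the partners may not be fully told apart.

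The farthest gene inside the limit of 200 kb was Castor2 on the Gtf2i side and Hip1 on the Fkbp6 side. The closest gene outside the limit was Ccl26 at 210 kb on the Fkbp6 side, an eosinophil chemokine gene with 14 counts in all mice together. No gene of the table lay between 200 kb and 1 Mb on the Gtf2i side. On the Fkbp6 side there were 23, of which 14 were tested, and the test of these genes does not depend on how the 9 genes were chosen. By edgeR's quasi-likelihood test with adjustment over 11319 genes, 0 of the 14 differed between CD and WT averaged over treatments, where 1.09% of all tested genes did. Without adjustment 1 gene was under 0.05, the small heat shock protein gene Hspb1, at a difference of -0.32 on the log2 scale (SE 0.13, edgeR adjusted p = 0.287). DESeq2 gave the same counts of 0 and 1. Without WT JZL184 mouse B, Hspb1 passed edgeR's test (log2 fold-change -0.42, adjusted p = 0.0255). The 14 log2 fold-changes ran from -0.32 to 0.08, and none of the 23 genes separated all CD from all WT mice. Within a single treatment, 5 of the 14 differed under vehicle (30.4% of all tested genes) and 4 under JZL184 (38.3%).

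**Figure D2:**
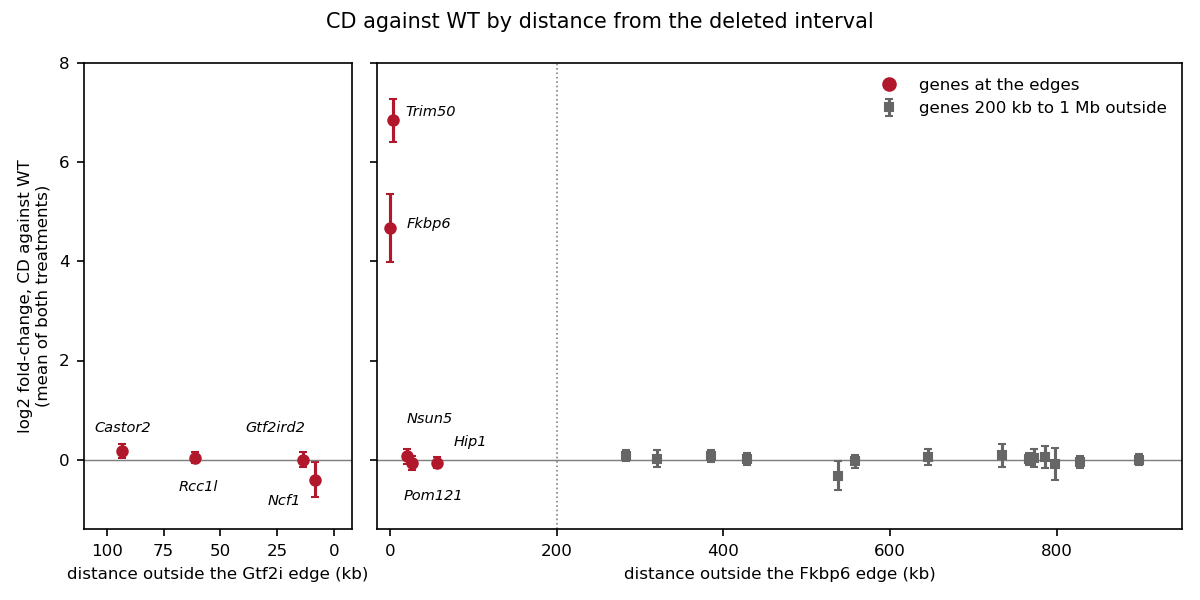
Log2 fold-change of CD against WT averaged over both treatments (vertical axis) against distance in kb outside the Gtf2i edge (left) and the Fkbp6 edge (right); red circles are the 9 genes (Fkbp6 from the fit without the filter), grey squares the 14 tested genes between 200 kb and 1 Mb, and bars are 95% intervals. Trim50 at 6.84 and Fkbp6 at 4.67 stand above the other genes, which lie between -0.40 and 0.17.

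The genes whose pattern over the 11 mice was most like that of Fkbp6 were Trim50 (Pearson r = 0.95 on log2 CPM), Asl (0.93), Zswim5 (0.93), Fam122b (0.92) and Slc16a7 (0.92), among 14617 genes. For Trim50 they were Slc16a7 (0.98), Plet1 (0.96), Mpnd (0.96), Fkbp6 (0.95) and Tomm40l (0.93). For Fkbp6 and Trim50 the CD mice stand apart from the WT mice, and all genes share the same libraries. Therefore r mainly ranks genes by how sharply they separate CD from WT mice, which few genes do. Slc16a7, a monocarboxylate transporter gene on chromosome 10, had 11.3 to 15.8 CPM in CD and 4.84 to 7.16 CPM in WT mice, a smaller separation than that of Trim50. The likeness of Fkbp6 and Trim50 depended on the prior count, since with one of 0.5 neither was among the 5 genes most like the other.

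The response to JZL184 was not used to choose the genes, and it was counted over the 7 genes that passed the filter, leaving out Trim50, which passed it only through its level in CD mice. In CD mice, Castor2, Rcc1l and Pom121 were higher under JZL184 than under vehicle (3 of 7), where 33.9% of all tested genes differed and 16.8% were higher. Castor2 (ENSMUSG00000015944.9, 134099711 to 134144343), an arginine sensor gene of the mTORC1 pathway, had 21.7, 22.0 and 20.1 CPM in CD VEH. It had 25.0, 26.7 and 26.4 CPM in CD JZL184, a difference of 0.29 on the log2 scale (SE 0.08, edgeR adjusted p = 0.0198). Rcc1l (ENSMUSG00000061979.8, 134148054 to 134176774), which encodes a mitochondrial protein of 16S rRNA and ribosome assembly, had 19.1, 20.0 and 19.8 CPM in CD VEH. In CD JZL184 it had 23.0, 23.7 and 23.6 CPM, a difference of 0.26 on the log2 scale (SE 0.07, edgeR adjusted p = 0.0135).

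Pom121 (ENSMUSG00000053293.9, 135376141 to 135394546), a membrane-anchored nucleoporin gene, had 11.7, 13.3 and 11.9 CPM in CD VEH. In CD JZL184 it had 13.7, 14.4 and 16.2 CPM, a difference of 0.26 on the log2 scale (SE 0.08, edgeR adjusted p = 0.0305). The 3 CD VEH and 3 CD JZL184 mice did not overlap for 7 of the 9 genes, all but Fkbp6 and Nsun5, as for 54.6% of all tested genes. The calls of Castor2, Rcc1l and Pom121 were each lost when certain mice were left out. Without CD VEH mouse A none of the 7 genes passed edgeR's test, and without CD JZL184 mouse E or CD VEH mouse E only Rcc1l did, whereas without WT JZL184 mouse B 5 passed.

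Fkbp6 and Trim50 did not pass the test in CD mice. For Fkbp6 the log2 fold-change was 0.11 (SE 0.27, edgeR adjusted p = 0.836 without the filter), and the ratio of summed counts was 1.07 (0.887 to 1.29). For Trim50 it was -0.18 (95% interval -0.49 to 0.13, edgeR adjusted p = 0.342), although its 3 CD JZL184 mice lay below its 3 CD VEH mice in CPM. The ratio of its summed counts was 0.882 (0.822 to 0.945), where the interval covers counting error only. The spread in the fit of Trim50 is shared with the WT mice, at 0 to 8 counts. Gtf2ird2 (ENSMUSG00000015942.9, 134184019 to 134224355), a TFII-I family gene, had a log2 fold-change of 0.22 (edgeR adjusted p = 0.0687) and Nsun5 one of -0.01 (95% interval -0.22 to 0.19). Hip1 (ENSMUSG00000039959.13, 135406531 to 135545120), an adaptor gene of clathrin coats, had one of -0.05 (95% interval -0.21 to 0.10).

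Ncf1 (ENSMUSG00000015950.13, 134220053 to 134229625) encodes p47phox, the organiser subunit of the phagocyte NADPH oxidase. It had 4.25, 4.01 and 5.18 CPM in CD VEH and 2.67, 3.50 and 2.76 CPM in CD JZL184, a difference of -0.59 on the log2 scale (SE 0.21, edgeR adjusted p = 0.051). In WT mice it had 3.75 and 4.46 CPM under vehicle and 4.18, 7.95 and 4.95 CPM under JZL184, or 0.47 higher on the log2 scale (SE 0.24, edgeR adjusted p = 0.153). WT JZL184 mouse B had the highest level of all mice, and the WT difference was 0.16 without it and 0.65 (edgeR adjusted p = 0.0383) without WT JZL184 mouse A. The call in CD mice was near the threshold, and 8 of 19 alternatives passed it.

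Leukocyte and macrophage markers moved with Ncf1. The summed level of 6 such markers was 213 to 226 CPM in WT VEH, 281 to 480 in WT JZL184, 275 to 362 in CD VEH and 188 to 218 in CD JZL184, and none was at 0. The 4 neutrophil markers summed to between 0.480 and 9.13 CPM per mouse, and none of them passed the filter. Of the 6 leukocyte and macrophage markers, 5 fell with JZL184 in CD mice, where 17.0% of all tested genes fell, and 5 rose with JZL184 in WT mice, where 15.4% rose. Their part in the Ncf1 values was not tested, and in bulk tissue fewer cells of a type and less RNA per cell cannot be told apart. Rac2 and Cybb, which encode a GTPase and the catalytic subunit of the same oxidase, rose with JZL184 in WT mice (0.89 and 0.70 on the log2 scale, edgeR adjusted p = 0.0111 and 0.0087). In CD mice their values were -0.49 (edgeR adjusted p = 0.0583) and -0.17 (adjusted p = 0.331), and neither passed. Averaged over treatments, neither passed between CD and WT (-0.01 and -0.02).

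In WT mice 0 of the 7 genes passed edgeR's test between JZL184 and vehicle, where 29.4% of all tested genes did. At an unadjusted p under 0.05 there were 3, and DESeq2 called 1. For Trim50, 6 counts in the 3 WT JZL184 mice stood against 16 counts in the 2 WT VEH mice (ratio 0.239, counting interval 0.0767 to 0.644), which is given as a description. Castor2 had a log2 fold-change of -0.24 (edgeR adjusted p = 0.069), Rcc1l -0.19 (0.0702), Pom121 -0.18 (0.16), Gtf2ird2 -0.17 (0.21) and Hip1 0.21 (0.0671). When 1 WT JZL184 mouse was left out, 2 genes passed without mouse A (Hip1, at 0.29 with edgeR adjusted p = 0.00246, and Ncf1), 1 without mouse B (Rcc1l) and 1 without mouse D (Castor2). For Fkbp6 the ratio of summed counts was 1.02 (0.294 to 3.97) from 8 and 5 counts, so a difference was not detectable at this depth.

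**Figure D3:**
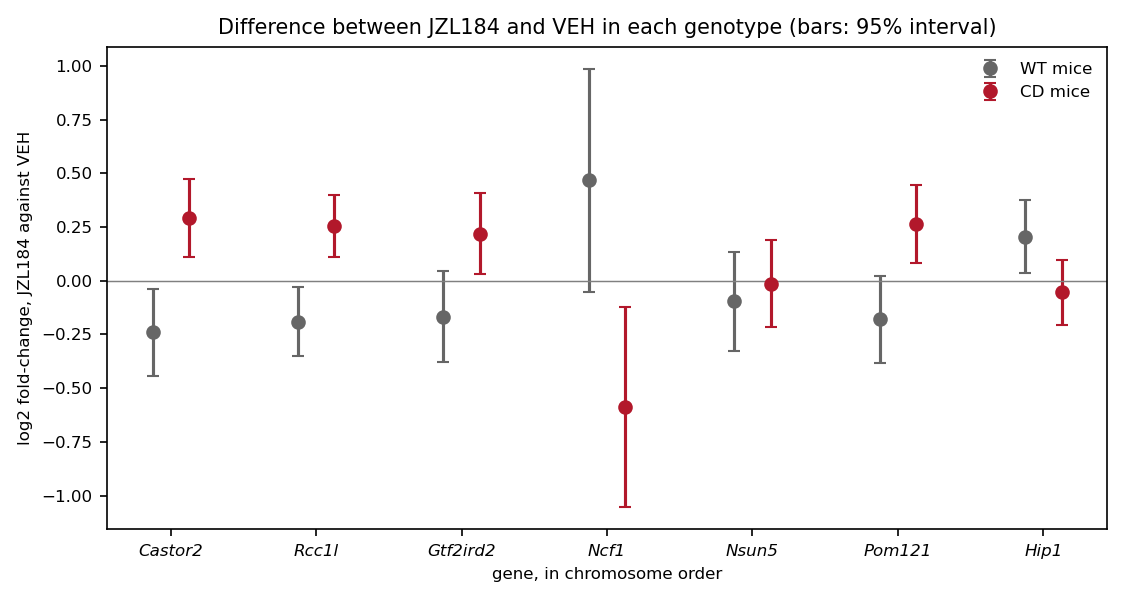
Log2 fold-change of JZL184 against vehicle (vertical axis) in WT mice (grey) and CD mice (red) for the 7 genes counted, in chromosome order; bars are 95% intervals of the edgeR fit. Castor2, Rcc1l, Gtf2ird2 and Pom121 are above 0 in CD mice and below 0 in WT mice, and Ncf1 goes the opposite way and has the widest intervals.

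The JZL184 response differed between the genotypes for 5 of the 7 genes by the interaction term of the same model, where 51.5% of all tested genes did (25.3% upward and 26.2% downward). Castor2 (0.53 on the log2 scale, SE 0.12, edgeR adjusted p = 0.00423), Rcc1l (0.45, SE 0.10, adjusted p = 0.00315) and Pom121 (0.44, SE 0.13, adjusted p = 0.0114) responded more positively in CD than in WT mice. Their CPM means under vehicle and JZL184 were 22.7 and 19.2 in WT against 21.3 and 26.0 in CD for Castor2. Rcc1l had 22.2 and 19.5 in WT against 19.6 and 23.4 in CD. For Pom121 they were 15.0 and 13.3 in WT against 12.3 and 14.8 in CD. Gtf2ird2 had an interaction term in the same direction (0.39), and Ncf1 had one of -1.06. Cardiomyocyte markers moved with this pattern, since 3 of 6 rose and 1 fell with JZL184 in CD mice (16.8% and 17.0% of all tested genes) and 3 fell in WT mice (14.0%). Their summed level was 29452 to 29855 CPM in WT VEH, 20837 to 28455 in WT JZL184, 24816 to 27314 in CD VEH and 28118 to 30085 in CD JZL184. The 4 endothelial markers went the other way, since 3 fell in CD mice (17.0% of all tested genes) and 4 rose in WT mice (15.4%), with sums of 430 to 431, 645 to 677, 531 to 594 and 420 to 491 CPM in the same groups. The mitochondrial share of counts also went the other way, rising with JZL184 in WT mice and falling in CD mice. It was 39.4% to 41.2% in WT VEH, 45.0% to 46.6% in WT JZL184, 43.5% to 44.7% in CD VEH and 36.4% to 40.1% in CD JZL184. Without the mitochondrial genes in the fit, the same 5 genes passed the interaction test and the same 3 passed in CD mice. That fit leaves out the counts of these genes only, and other differences in RNA composition between the groups stay in it. The part of either marker list or of RNA composition in the pattern was not tested. The terms of Hip1 (-0.26, SE 0.10, edgeR adjusted p = 0.0557) and Nsun5 (0.08, SE 0.14, adjusted p = 0.642) did not pass.

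The other genes of the pathways of Pom121, Castor2, Hip1, Rcc1l, Nsun5 and Fkbp6 are counted against the 33.9% of all tested genes that passed the test between JZL184 and vehicle in CD mice and the 29.4% that did in WT mice. Of 24 other nuclear pore genes, 3 rose and 2 fell with JZL184 in CD mice (largest change Nup43, -0.30, edgeR adjusted p = 0.0257), and 3 fell in WT mice (largest Tpr, -0.35, adjusted p = 0.0173). The median of the 24 was 0.09 in CD mice and -0.10 in WT mice on the log2 scale. Of 14 genes of amino acid sensing upstream of mTORC1, 2 rose and 1 fell in CD mice (largest Sesn3, a sestrin gene, 0.39, adjusted p = 0.0316), and Depdc5, a GATOR1 subunit gene, fell in WT mice (-0.26, adjusted p = 0.0275). Of 14 clathrin endocytosis genes, 3 rose and 2 fell in either genotype, with the largest changes for Ap2a1 in CD mice (0.34, adjusted p = 0.00504) and for Hip1r, the paralogue of Hip1, in WT mice (0.29, adjusted p = 0.0117). None of the 5 genes of the mitochondrial 16S rRNA module and none of the 5 other NSUN methyltransferase genes tested passed edgeR's test in either genotype. Of the 3 piRNA genes, Tdrd7 passed in WT mice (0.25, adjusted p = 0.0322). No gene of these lists differed between CD and WT averaged over treatments by edgeR's test, where 1.09% of all tested genes did.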

How the data were processed

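Heart RNA of 11 mice was sequenced by the authors, who deposited estimated counts per gene without normalization. They were made with Salmon 0.7.2 on Ensembl release 85 (GRCm38, mm10 in the labels) and tximport 1.2.0. Columns name the group and a letter, so mice carry letters here, and 0 columns had no group. Each mouse was taken as a separate replicate, and the p-values measure the spread between these mice.

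Rounded counts entered a single model of 4 groups, fitted by the quasi-likelihood method of edgeR 4.0.16 with TMM factors (limma 3.58.1, R 4.3.3). The filter was an average log2 CPM of 1 or more (11319 genes tested), and p-values were adjusted by the Benjamini-Hochberg method over all of them with a threshold of 0.05. Fkbp6 was taken from the same fit without the filter (19080 genes). Trim50 passed the filter only through CD mice, so it was left out of the counts of passing genes and its JZL184 values in WT mice were not tested. Ratios of counts have exact conditional binomial intervals (95%). Genes were matched by identifier to GENCODE mouse release M21 (22238 of 22608 genes). Promoter windows are from RefSeq (GRCm38.p6).

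The 9 genes and all gene lists were chosen with earlier results of these data known, so lists are described by counts and medians. Named outside the 9 genes are the nearest deleted neighbours, the closest gene beyond 200 kb, the 5 genes with the highest r (log2 CPM, prior count 2), and in each list the called gene with the largest change. Hspb1, Cybb and the piRNA genes above the filter were named after their values were seen. Nup58 and Cblif of the lists were not matched, and 1 listed gene is not reported here.

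The alternatives were DESeq2 1.42.0, RLE and upper quartile factors, removal of mitochondrial genes, no filter, a minimum of 10 counts per mouse, a model of the compared groups alone, a prior count of 0.5, leaving out each mouse and, chosen after seeing the data, the column letter as a replicate block. The steps were tested on simulated counts. Intervals cover counting error only, unless given for a log2 fold-change.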

Additional observations from a re-analysis of the deposited data

Results flagged for a closer look

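The effect of JZL184 differed between CD and WT mice for 5 of the 7 genes counted, by the interaction term of edgeR's model (JZL184 against vehicle in CD minus the same in WT, on the log2 scale), and 51.5% of all tested genes also did. The term was 0.53 for Castor2 (18 of 18 alternatives passed), 0.45 for Rcc1l (18 of 18) and 0.44 for Pom121 (17 of 18). For Gtf2ird2 it was 0.39 (edgeR adjusted p = 0.0267, 10 of 18 alternatives passed, highest adjusted p = 0.134). For Ncf1 it was -1.06 (edgeR adjusted p = 0.0162, 17 of 18, the exception without WT VEH mouse C).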

How the results depend on the processing

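The columns carry no replicate numbers of the labels, but their letters recur between groups. Nothing in the sources used here says that a letter marks related mice, and the deviations of same-letter mice from their group means correlated at 0.04 (A), -0.10 (C) and -0.00166 (E) in CD and -0.06 (D) in WT mice. With the letter as a replicate block, chosen after seeing the data, 4 genes passed in CD mice (Ncf1 added), 0 in WT mice and 3 in the interaction (without Gtf2ird2 and Pom121), and the averaged difference of CD against WT was 0.29 for Castor2 and 0.0248 for Hip1. Leaving out each mouse gave between 0 and 5 passing genes of the 7 for JZL184 in CD mice, between 0 and 2 (without WT JZL184 mouse A) in WT mice and between 3 (without WT VEH mouse C) and 6 for the interaction, and 0 to 1 of the genes beyond 200 kb. In WT mice, DESeq2 and upper quartile factors gave 1 passing gene, Hip1, where edgeR with TMM factors gave 0. With a prior count of 0.5, 3 of the 5 genes most like Fkbp6 and 3 of the 5 most like Trim50 were kept, and Fkbp6 and Trim50 left each other's 5.

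The log2 fold-change of CD against WT ran from 4.30 to 5.34 for Fkbp6 (highest without WT VEH mouse C) and from 6.59 to 7.70 for Trim50 (highest without WT JZL184 mouse D) when a mouse was left out. For the JZL184 effect on Fkbp6 it ran from -0.0234 (without CD JZL184 mouse A) to 0.25 in CD mice, from -0.83 to 1.35 in WT mice (below 0 without WT JZL184 mouse B and, at -0.728, without WT VEH mouse D, and at -0.949 with the replicate block) and from -1.24 to 0.94 for the interaction, never past the threshold. The interaction of Fkbp6 was below 0 without WT VEH mouse C (-1.24), WT JZL184 mouse A (-0.273), WT JZL184 mouse D (-0.153) and CD JZL184 mouse A (-0.0459). Nsun5 changed direction in CD mice (0.0441 without CD JZL184 mouse C and 0.0471 without CD VEH mouse E), in WT mice (0.0480 without WT VEH mouse D) and in the interaction (-0.0618 without WT VEH mouse D), near 0 throughout.

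Single-gene calls were lost in 19 settings and gained in 18, and 369 kept their direction and side. Gtf2ird2 kept no interaction call under upper quartile factors (0.32, adjusted p = 0.0586). Ncf1 passed in CD mice with DESeq2 (adjusted p = 0.0207), and Hip1 passed in WT mice with DESeq2 (adjusted p = 0.0485). The cause of these changes was not tested. Depth limits the values of Fkbp6 and of Trim50 in WT mice, at 0 to 8 counts per mouse.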
